A study of Mus musculus with 12 samples.

Results

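The replicative helicase of mouse cells and the factors that load it onto DNA were followed here in regulatory T cells (Tregs) that lack Ebi3, Il10 or both. The members are all probe sets of the array annotated to 9 genes: Mcm6, its partner subunits Mcm2, Mcm3, Mcm4, Mcm5 and Mcm7, and the loading or activating factors Mcm10, Cdt1 and Cdc6. They are 9 of the 18194 genes named in the annotation, with 26 of the 45101 probe sets in the table, and 23 of them were bright enough to be tested. None of the 26 is annotated to a further gene. The genes were selected on measured signals of these arrays: Mcm6, which lies on chromosome 1 as Il10 does, was lower in cells without Il10. For this reason the signals of Mcm6 in the comparisons that differ by Il10 are a description and carry no test.

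The study measured RNA on 12 Affymetrix mouse arrays of Tregs purified by flow cytometry, untreated and used fresh. The genotypes, with 3 arrays each, were Ebi3 -/- Il10 -/- (DKO), Il10 -/- (Il10_KO), Ebi3 -/- (Ebi3_KO) and wild type (WT). Il10 is the gene of IL-10 and Ebi3 that of a subunit of IL-35 and of IL-27, and Tregs restrain other cells with IL-10 and IL-35. Each genotype has 1 array in each of 3 labelled batches, and the replicate number is the batch number on every array. The design text calls the cells natural Tregs, while strain, age, sex, the targeted alleles and whether the replicates are separate animals were not given in the labels, so p-values measure the spread between these samples, which may be technical.

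Signals are on the linear scale of the MAS5 program, which scaled each array to the same trimmed mean of about 500. Differences are on the log2(signal + 20) scale with their standard error (SE). Unless stated, this SE comes from a fit without batch, although arrays of the same batch deviated together. With batch in the fit it was smaller for most members, at 0.16 in place of 0.40 for Mcm2 1434079_s_at. For Mcm5 1459658_at it was larger, at 0.40 in place of 0.38. The number of arrays limits the precision, and the signal of 1 probe set cannot be set against that of another. Ebi3 itself read 15.2 to 72.5 in DKO and 3.0 to 39.5 in Ebi3_KO, against 1062 to 2057 in Il10_KO and 1159 to 1728 in WT. Il10 read 1017 to 2639.6 in DKO and 1028 to 2038 in Il10_KO, against 574.4 to 2385 in Ebi3_KO and 184.5 to 2939.8 in WT. The groups overlap for Il10, and since the deleted part of the gene is not given, the probe set is no check of the Il10 labels. The defining Treg marker Foxp3 read 4945 to 7955 over the 12 arrays, and all 6 Treg markers on the list were measured.

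The arrays of the 3 batches stood apart in every genotype. The ratio of the 3′ to the 5′ Gapdh control probe sets, which grows as RNA breaks down, was 10.1 to 23.4 in batch 2, against 3.30 to 3.35 in batch 1 and 3.55 to 6.77 in batch 3. Summed signals of 4 myeloid markers were 19038 to 36769 in batch 3, against 2383 to 3022 in batch 1 and 1785 to 3675 in batch 2. Neutrophil markers (4 of 4 on the array) summed to 4419.5 to 14406 in batch 3, against 969.1 to 3964 in the other batches. CD8 T and NK cell markers (6 of 6) summed to 4053.5 to 8598 in batch 3, against 1509.9 to 2416 in the other batches. The 6 Treg markers together were lower there, at 30164 to 35351 against 46122 to 55064. By genotype the myeloid sums spanned 2444 to 32767 in DKO and 1785 to 36769 in Il10_KO, against 2383 to 19572 in Ebi3_KO and 2556 to 19037.5 in WT. B cell markers (3 of 4) spanned 674.0 to 6862 and erythroid markers (2 of 4) 19.3 to 275.3 over all arrays. Of the markers on the array, 3 of 4 myeloid and 1 of 2 erythroid ones were bright enough to be tested. Itgam of the myeloid list (1.8 to 94.1) and Hba-a1 of the erythroid list (2.1 to 27.2) were dim. The part of these other cells in the values below was not tested, and the differences are therefore also given within each batch. In bulk RNA, fewer cells that copy their DNA and less RNA per cell cannot be told apart.

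Mcm2, Mcm3, Mcm4, Mcm5, Mcm6 and Mcm7 form a ring of 6 different subunits, 1 of each, that is placed around DNA at replication origins before S phase. The origin recognition complex, Cdc6 and Cdt1 load the ring, and Cdc45, the GINS proteins and Mcm10 then help turn it into the active helicase that opens the fork. Transcripts of these genes are made mainly as cells enter S phase, under the E2F transcription factors, so they are widely used as marks of cycling cells. The 6 subunits are encoded on 5 chromosomes: Mcm3 and Mcm6 on chromosome 1, Mcm2 on 6, Mcm4 on 16, Mcm5 on 8 and Mcm7 on 5. Mcm10 lies on chromosome 2, Cdt1 on 8 and Cdc6 on 11.

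The promoters of these genes were read from RefSeq (GRCm38.p6) as windows of 250 bases before and 50 bases after each start site. They were searched on both strands for 4 forms of the E2F site, TTTGGCGC, TTTCCCGC, TTTCGCGC and TTTGCCGC. At least 1 form stood in 6 of 9 windows and in 6 of the 8 member genes that have an entry, against 744 of all 32851 windows (2.26%). The genes with a match were Mcm3, Mcm5, Mcm6, Mcm7, Cdt1 and Cdc6, while the windows of Mcm2 and Mcm10 and 1 of the 2 windows of Mcm7 held none of these letters. Mcm6 had 3 matches: TTTGGCGC beginning at base -110 from the start site, GCGCGAAA at base -106, which overlaps it and is the reverse strand of TTTCGCGC, and TTTGGCGC again at base -47. A repeat of TTTGGCGC on either strand was found in 2 windows of the table, those of Mcm6 and Mycn, a count looked at after the match was seen. In Mcm5 the matches were TTTCGCGC at base -153 and, overlapping it, GCGCCAAA at base -149. The parts of both windows that lie before any annotated gene are shown, since Mcm6 and this partner hold the same kind of overlapping match. All matches in them are in capitals, and whether they bear on the signals was not tested. The Mcm6 stretch is chr1:128359706-128359955 on the minus strand, and the Mcm5 stretch is chr8:75109259-75109467 on the plus strand, which ends 41 bases before the Mcm5 start site.
Mcm6: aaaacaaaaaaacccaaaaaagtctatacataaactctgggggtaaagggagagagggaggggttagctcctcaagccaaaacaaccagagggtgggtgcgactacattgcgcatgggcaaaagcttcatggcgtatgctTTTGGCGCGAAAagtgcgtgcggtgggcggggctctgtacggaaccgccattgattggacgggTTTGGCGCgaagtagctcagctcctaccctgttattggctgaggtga
Mcm5: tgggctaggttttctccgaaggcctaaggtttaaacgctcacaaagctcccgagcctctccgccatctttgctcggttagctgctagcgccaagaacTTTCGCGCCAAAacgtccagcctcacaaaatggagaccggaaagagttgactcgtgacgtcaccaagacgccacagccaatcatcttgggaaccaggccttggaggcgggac
A match is a description of the letters and not a bound site.

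Mcm6 had lower signals in both genotypes without Il10. The brighter of its probe sets (1416251_at) read 2585, 3547 and 3208 in the DKO arrays of batches 1, 2 and 3. It read 2166, 3537 and 3634 in Il10_KO, 3328, 6845 and 6482 in Ebi3_KO and 4540.5, 7892 and 8367 in WT. Every DKO and Il10_KO array lay below every WT array, and within each batch both also lay below the Ebi3_KO array. The DKO mean was 3113 ± 488 and the Il10_KO mean 3112 ± 821, against 5552 ± 1934 for Ebi3_KO and 6933 ± 2086 for WT (SD, n = 3 each). The order of the means was thus WT, Ebi3_KO and then the 2 genotypes without Il10, and the neighbours WT and Ebi3_KO overlapped, as did Il10_KO and DKO.

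Against WT the log2 difference was -1.11 ± 0.32 in DKO and -1.14 ± 0.32 in Il10_KO. These are signals of 0.463 and 0.454 times WT, the offset included. Within batches 1, 2 and 3 the differences were -0.81, -1.15 and -1.38 in DKO and -1.06, -1.15 and -1.20 in Il10_KO. Against Ebi3_KO the DKO arrays differed by -0.77 ± 0.32, with -0.36, -0.94 and -1.01 within the batches. Here the groups overlapped, since Ebi3_KO replicate 1 read less than DKO replicate 2. All 9 differences within batches were below 0. The first 2 comparisons share the WT arrays and DKO arrays are used more than once, so they are not independent of each other.

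The other bright Mcm6 probe set (1438852_x_at) gave the same picture at lower signals. It read 2606, 2731 and 1689 in DKO and 1850.3, 3027 and 1989.8 in Il10_KO, against 2743, 6217 and 3688 in Ebi3_KO and 3578, 5585 and 3833 in WT. Its highest array without Il10, Il10_KO replicate 2, lay below the lowest WT array, and it lay above Ebi3_KO replicate 1. The log2 differences were -0.88 ± 0.32 in DKO against WT, -0.92 ± 0.32 in Il10_KO against WT and -0.79 ± 0.32 in DKO against Ebi3_KO. In the last of these the batches were unequal, at -0.07, -1.18 and -1.12. The 2 probe sets correlated at r = 0.831 over the 12 arrays. Another Mcm6 probe set (1447756_x_at) read 1.3 to 55.1, reached the 40th percentile of signals on 1 array and was not tested.

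**Figure D1:**
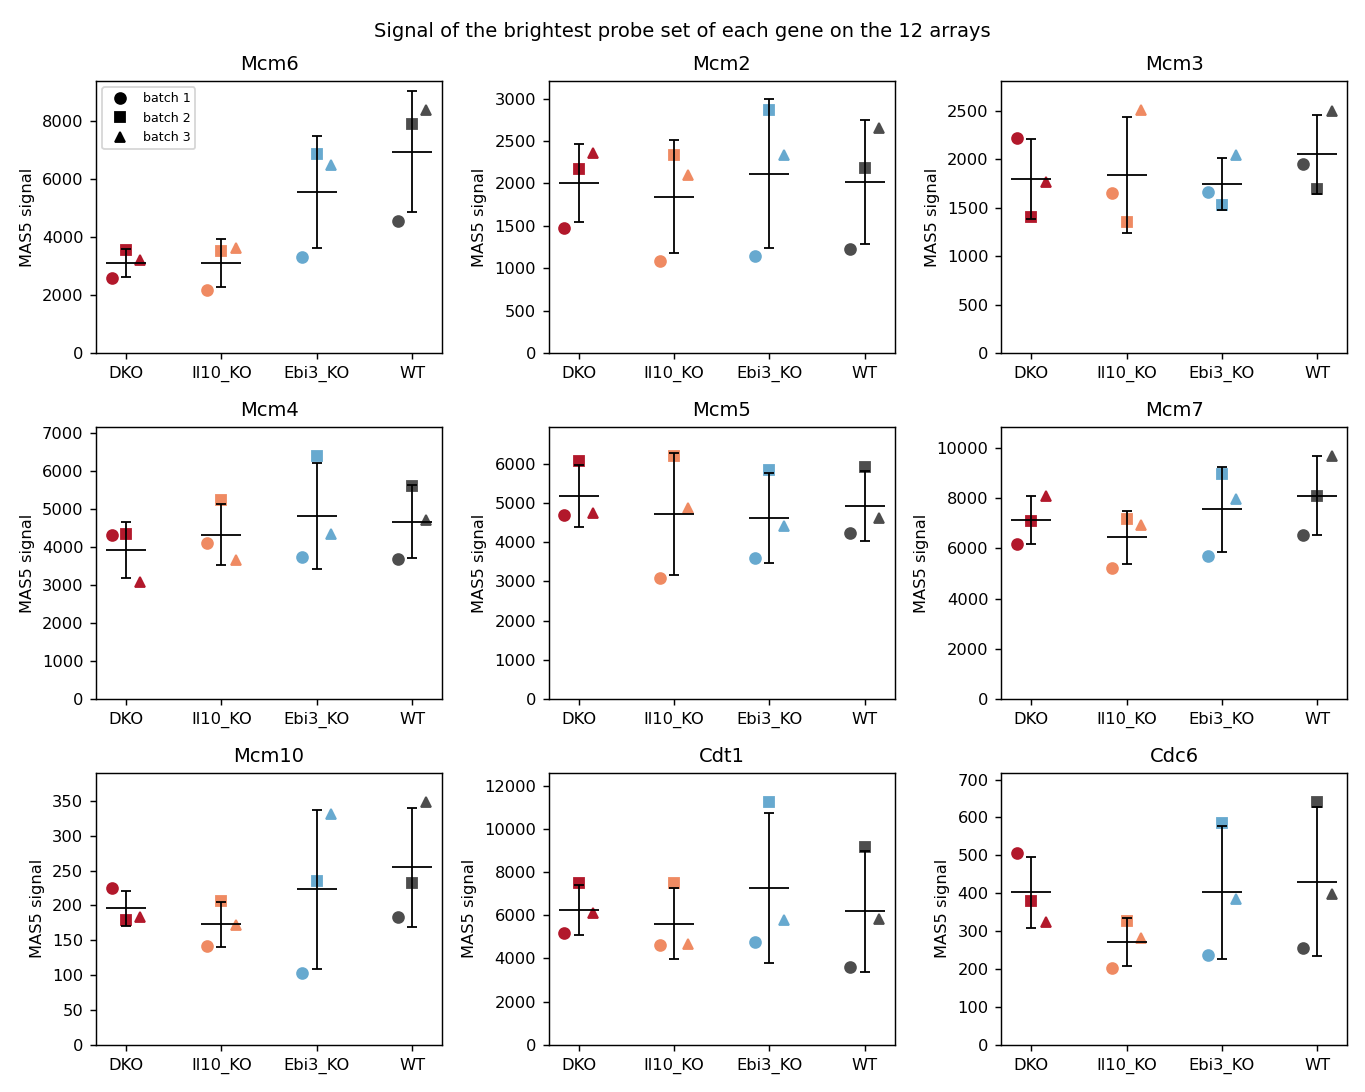
Signal (linear scale, from 0) of the brightest probe set of each gene on the 12 arrays, by genotype; symbols give the batch, long horizontal lines the mean and bars the SD of 3 arrays. Mcm6 reads 2166 to 3634 in DKO and Il10_KO and 4540.5 to 8367 in WT, while the DKO and Il10_KO arrays of the other 8 genes overlap those of WT.

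None of the partner subunits showed this separation on its brightest probe set. Mcm2 (1434079_s_at), which sits beside Mcm6 in the ring, read 1481, 2173 and 2362 in DKO and 1087, 2341 and 2099 in Il10_KO, against 1148, 2863 and 2332 in Ebi3_KO and 1227, 2177 and 2658 in WT. The ranges of all 4 genotypes overlapped, with batch 1 the lowest in each. Its log2 difference from WT was 0.03 ± 0.40 in DKO and -0.14 ± 0.40 in Il10_KO.

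Mcm3 (1420028_s_at), the other subunit encoded on chromosome 1, read 2222, 1401 and 1765 in DKO and 1651, 1349 and 2504 in Il10_KO, against 1661, 1527 and 2044 in Ebi3_KO and 1954.5, 1693 and 2497 in WT. The differences from WT were -0.19 ± 0.27 in DKO and -0.19 ± 0.27 in Il10_KO. The groups overlapped in both comparisons, and 1479 annotated genes lie between Mcm3 and Mcm6.

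Mcm4 (1436708_x_at), a subunit of the catalytic core together with Mcm6 and Mcm7, read 4325.5, 4358 and 3075 in DKO and 4118, 5229 and 3650.3 in Il10_KO, against 3737.5, 6399.9 and 4353 in Ebi3_KO and 3696, 5605 and 4711 in WT. DKO replicate 3 was the lowest array and Ebi3_KO replicate 2 the highest. The differences from WT were -0.25 ± 0.25 in DKO and -0.10 ± 0.25 in Il10_KO.

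Mcm5 (1436808_x_at), which forms the gate of the ring with Mcm2, read 4688.5, 6078.5 and 4747 in DKO and 3085, 6199 and 4870.0 in Il10_KO, against 3594.5, 5847 and 4404 in Ebi3_KO and 4239, 5929.7 and 4621 in WT. Batch 2 was the highest in every genotype. The differences from WT were 0.07 ± 0.27 in DKO and -0.11 ± 0.27 in Il10_KO.

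Mcm7 (1438320_s_at), the other core subunit, read 6167, 7109.9 and 8096 in DKO and 5235, 7162 and 6948 in Il10_KO, against 5708, 8986 and 7980.1 in Ebi3_KO and 6532, 8088 and 9683 in WT. In each batch the Il10_KO array lay below the WT array, though the groups overlapped. The differences from WT were -0.18 ± 0.22 in DKO and -0.32 ± 0.22 in Il10_KO. Of the partners' brightest probe sets this was the one furthest below WT in Il10_KO.

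Over all 16 tested probe sets of the 5 partners, 14 lay below WT in DKO (median -0.14, range -0.62 to 0.07) and 14 in Il10_KO (median -0.18, range -0.36 to 0.24). The 2 Mcm6 probe sets at -0.88 to -1.14 lay outside both ranges. Of all tested probe sets 48.8% were below WT in DKO and 50.1% in Il10_KO, with medians of 0.00919 and -0.000643. Against Ebi3_KO, 9 of the 16 were below 0 in DKO (median -0.01), where 44.5% of all tested probe sets were. The 16 probe sets come from 5 genes on the same arrays, so they are not separate results.

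In DKO against WT the 3 member probe sets whose groups did not overlap were both of Mcm6 and 1426653_at of Mcm3, all lower, where 2.97% of all tested probe sets were lower without overlap. That Mcm3 probe set read 255.8, 437.2 and 396.2 in DKO, against 456.0, 688.1 and 550.6 in WT, a difference of -0.62 ± 0.33. In Il10_KO against WT the 3 were both of Mcm6 and 1439269_x_at of Mcm7, against 2.74% of all. That Mcm7 probe set read 1062, 1518 and 1468.5 in Il10_KO, against 1559.8, 1657 and 1706 in WT, a difference of -0.29 ± 0.25. In DKO against Ebi3_KO only 1438852_x_at of Mcm6 was lower without overlap, against 1.82% of all. The genes were chosen with these comparisons in view, so nothing is read from the counts.

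Among 31235 probe sets, limma with a Benjamini-Hochberg adjusted p under 0.05 called 3 in DKO against WT (0.00960% of all), 2 in Il10_KO against WT (0.00640%) and 2 in DKO against Ebi3_KO (0.00640%). With batch in the limma model the calls were 13 (0.0416%), 12 (0.0384%) and 6 (0.0192%). These comparisons were used to choose the members, so no test of a member is given for them.

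**Figure D2:**
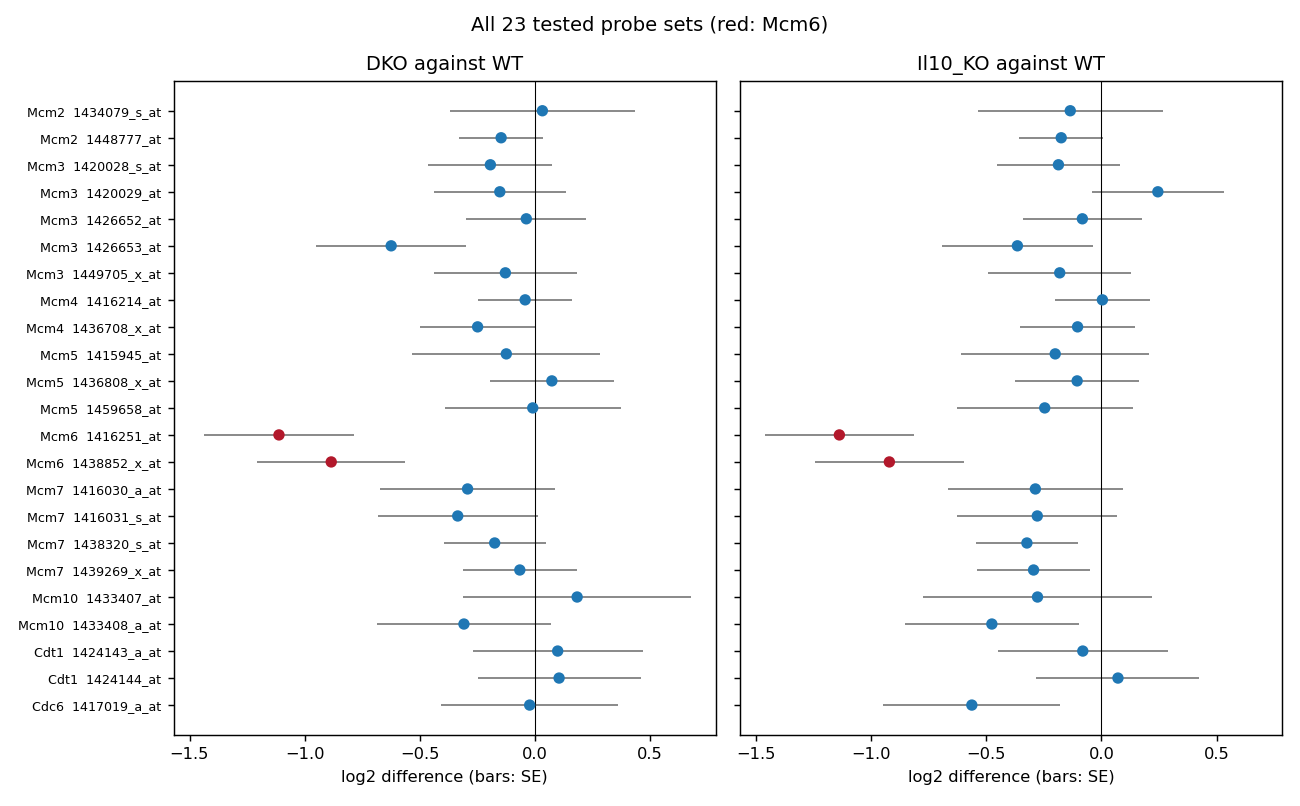
Log2 difference (points) and SE (bars) from WT of all 23 tested probe sets, in DKO on the left and in Il10_KO on the right, with 3 arrays in each group. The Mcm6 probe sets, in red, lie between -0.88 and -1.14, and the other 21 lie between -0.62 and 0.18 in DKO and between -0.56 and 0.24 in Il10_KO.

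Mcm6 was then set against its partners on each array. For every array the mean log2 value of the brightest probe sets of Mcm2, Mcm3, Mcm4, Mcm5 and Mcm7 was taken from that of Mcm6. Probe sets bind with different strength, so the size of this difference has no meaning by itself, and its change between arrays is what can be read. A factor that scales all probe sets of an array alike nearly cancels in it.

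The difference was -0.366, -0.00778 and -0.108 in the DKO arrays and -0.264, -0.0827 and -0.00767 in the Il10_KO arrays. It was 0.292, 0.667 and 0.790 in the Ebi3_KO arrays and 0.590, 0.985 and 0.971 in the WT arrays. All 6 arrays without Il10 (at most -0.00767) lay below all 6 arrays with Il10 (at least 0.292), and the place of 0 between them has no meaning. The DKO mean was -0.160 ± 0.185 and the Il10_KO mean -0.118 ± 0.132, against 0.583 ± 0.259 for Ebi3_KO and 0.849 ± 0.224 for WT (SD, n = 3 each).

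In DKO against WT the difference changed by -1.01, since Mcm6 itself differed by -1.11 and the partner mean by -0.10. In Il10_KO against WT the change was -0.97, with -1.14 for Mcm6 and -0.17 for the partner mean. In DKO against Ebi3_KO it was -0.74, with -0.77 and -0.03. Within batches 1, 2 and 3 the change was -0.955, -0.993 and -1.08 in DKO against WT and -0.854, -1.07 and -0.978 in Il10_KO against WT. It was -0.658, -0.674 and -0.898 in DKO against Ebi3_KO.

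With batch 2, the batch of high 3′ to 5′ ratios, left out, the change was -1.02 in DKO against WT, -0.92 in Il10_KO against WT and -0.78 in DKO against Ebi3_KO. With batch 3, the batch of high myeloid, neutrophil and CD8 or NK marker sums, left out, it was -0.97, -0.96 and -0.67 in the same order of comparisons. The shift of Mcm6 relative to the partners was of like size without either batch. The part of RNA quality or of other cells in it was not tested, since both also differed between genotypes within a batch. The values are a description, since the comparison was chosen with them in view.

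Choosing other probe sets for the partners left the direction as it was. Mcm6 1416251_at was lower relative to each of the 16 partner probe sets in all 3 comparisons, by -0.49 to -1.18 in DKO against WT, by -0.77 to -1.38 in Il10_KO against WT and by -0.49 to -1.04 in DKO against Ebi3_KO. Mcm6 1438852_x_at was also lower relative to all 16 each time. For both Mcm6 probe sets the groups overlapped for some of the 16 in every comparison. The 16 values reuse 1 Mcm6 probe set of a gene chosen for being low, so they are not separate results.

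**Figure D3:**
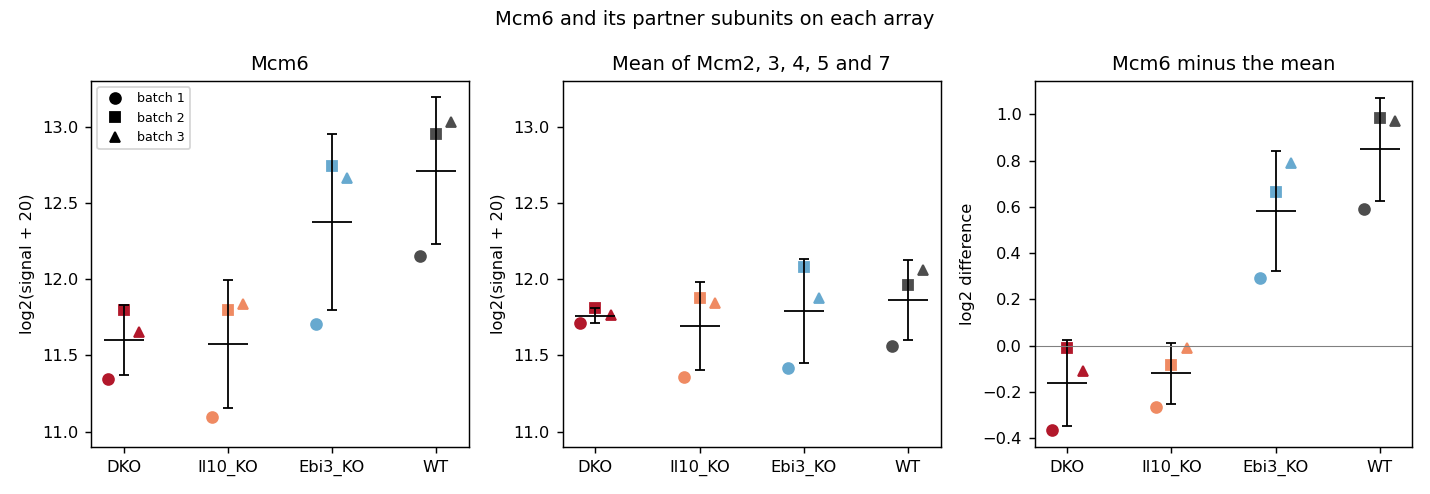
Mcm6 1416251_at (left), the mean of the brightest probe sets of its 5 partner subunits (middle) and their difference (right) on each array, on the log2(signal + 20) scale; long lines are means and bars the SD of 3 arrays, and symbols give the batch. The partner means overlap in all 4 genotypes, while the difference on every DKO and Il10_KO array lies below that on every Ebi3_KO and WT array.

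The loading and activating factors varied more between arrays than between genotypes. Cdt1 (1424143_a_at), which brings the ring to the origin, read 5167, 7489.7 and 6085 in DKO and 4608, 7494 and 4689.7 in Il10_KO, against 4769.6, 11247 and 5793 in Ebi3_KO and 3596.5, 9156 and 5821 in WT. Batch 2 was the highest in every genotype. The differences from WT were 0.10 ± 0.37 in DKO and -0.08 ± 0.37 in Il10_KO, and a second probe set (1424144_at) gave 0.10 ± 0.35 and 0.07 ± 0.35 for the same comparisons.

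Cdc6 (1417019_a_at), the ATPase that loads the ring with Cdt1, read 506.6, 379.0 and 323.6 in DKO and 203.4, 327.1 and 283.3 in Il10_KO, against 238.0, 586.2 and 384.0 in Ebi3_KO and 254.6, 641.3 and 397.3 in WT. Il10_KO lay below WT in each batch with overlapping groups (-0.56 ± 0.38), and DKO did not (-0.02 ± 0.38; 0.94, -0.73 and -0.28 within the batches).

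Mcm10 (1433408_a_at), which helps activate the helicase, was dim. It read 224.3, 179.2 and 183.5 in DKO and 141.3, 205.8 and 172.1 in Il10_KO, against 103.3, 234.5 and 330.9 in Ebi3_KO and 182.7, 231.9 and 348.5 in WT. Its differences from WT were -0.31 ± 0.38 in DKO and -0.48 ± 0.38 in Il10_KO, and the other tested probe set (1433407_at, 2.0 to 86.9) gave 0.18 ± 0.50 and -0.28 ± 0.50. Another Mcm10 probe set (1454244_at, 3.4 to 57.1) and another Cdt1 probe set (1455791_at, 1.4 to 19.0) were not tested.

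The comparisons that hold Il10 fixed were not themselves used to choose the genes, and limma results are given for them. They share all their arrays with the comparisons that were used, so for Mcm6 they are not independent of that choice. In Ebi3_KO against WT limma called 1 of 31235 probe sets (0.00320%) and none of the 23 members, with or without batch in the model. No member had an unadjusted p under 0.05 without batch, where 1.41% of all tested probe sets did. With batch 2 of the 23 had one (8.70%), Mcm6 1416251_at and Mcm7 1416030_a_at, where 5.31% of all did. Mcm6 1416251_at differed by -0.34 ± 0.32 (limma adjusted p = 1.00; 0.91 with batch), with -0.45, -0.20 and -0.37 within the batches. Its second probe set differed by -0.09 ± 0.32 (limma adjusted p = 1.00), so the direction seen on every batch of the first was not seen on all batches of the second (-0.38, 0.15 and -0.06). Mcm7 1416030_a_at read 1551, 903.0 and 1674 in Ebi3_KO, against 1856, 1248.5 and 2278 in WT, a difference of -0.38 ± 0.38 (limma adjusted p = 1.00; 0.91 with batch). The mean of the partners' brightest probe sets differed by -0.07, and Mcm6 relative to it by -0.27. Within batches 1, 2 and 3 the relative difference was -0.297, -0.318 and -0.181, below 0 in each, while the groups as a whole overlapped. These values are of Mcm6 1416251_at, which was lower relative to 13 of the 16 partner probe sets (-0.38 to 0.05). Mcm6 1438852_x_at was lower relative to 7 of the 16 (-0.13 to 0.30), so this direction was not shared by the second probe set. Of the 16 partner probe sets 12 lay below WT (median -0.11), where 54.3% of all tested probe sets did.

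In DKO against Il10_KO, limma called 1 probe set (0.00320%) and again no member. No member had an unadjusted p under 0.05 in either model, where 1.24% of all tested probe sets had one without batch and 3.49% with it. Mcm6 1416251_at differed by 0.03 ± 0.32 (limma adjusted p = 1.00), with 0.25, 0.00 and -0.18 within the batches, and Mcm6 relative to its partners by -0.04. Cdc6 was furthest from 0 among the members, at 0.54 ± 0.38 (limma adjusted p = 1.00). It was higher in DKO in all 3 batches, by 1.24, 0.20 and 0.18, and most of the mean came from batch 1.

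The interaction asks whether the effect of losing both genes departs from the sum of the 2 single losses. It uses the arrays of all 4 genotypes, so for Mcm6 it is likewise not independent of how the genes were chosen. It was 0.37 ± 0.46 for Mcm6 1416251_at and 0.13 ± 0.46 for 1438852_x_at (limma adjusted p = 1.00 for both). The largest interaction among members was 1.21 ± 0.70 for the dim Mcm10 1433407_at (limma adjusted p = 1.00), which read 2.0 on Ebi3_KO replicate 2. Limma called no probe set for the interaction (0% of 31235) in either model. Unadjusted p-values under 0.05 numbered 400 (1.28%), or 1232 (3.94%) when batch was a factor, and none of the 23 members had one.

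Across the 12 arrays genotype held more of the spread than batch in the Mcm6 probe sets, and batch held more in most partner probe sets. Genotype means held 64.7% and 59.3% of the sum of squares of the Mcm6 probe sets and batch means 32.0% and 29.8%. The genotype share of Mcm6 was part of how the genes were chosen. For the partners the batch share was the larger in 14 of 16 probe sets, up to 89.6% in Mcm2 1434079_s_at, and the genotype share reached at most 36.9%, in the dim Mcm3 1420029_at. For Mcm10, Cdt1 and Cdc6 the batch share was the larger in 4 of 5. Arrays of the same batch deviated together over all tested probe sets, and these shares were not computed for all of them. The counts are therefore not read as particular to the partners.

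**Figure D4:**
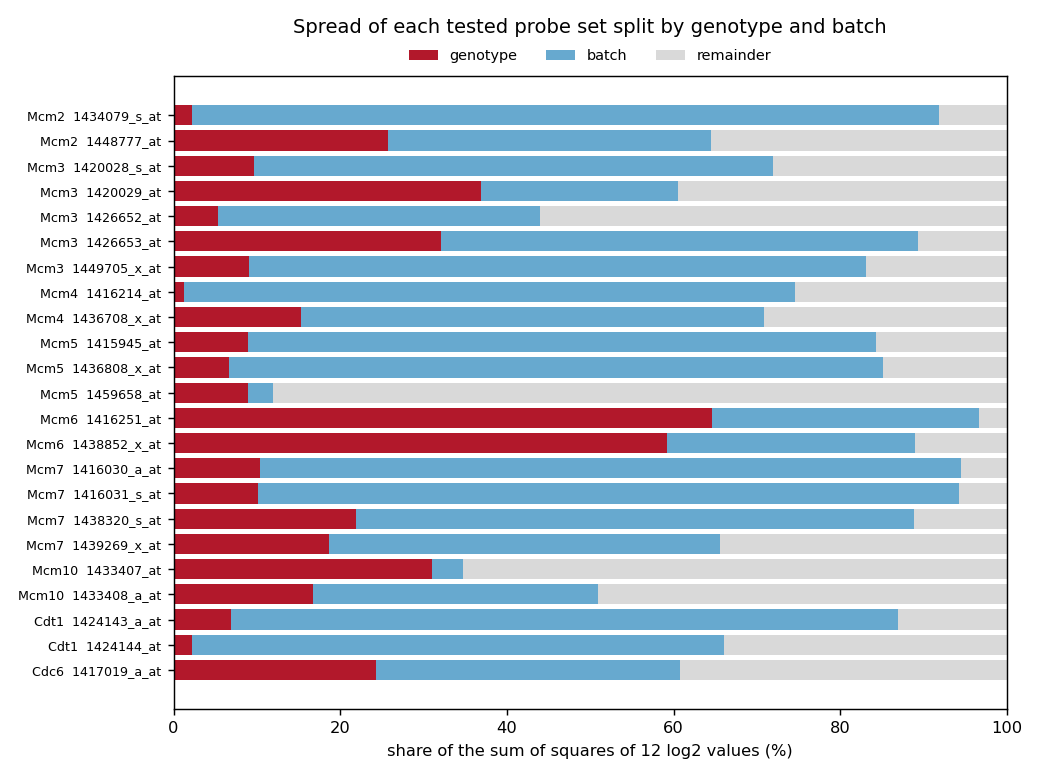
Share (%) of the sum of squares of the 12 log2 values held by genotype means, batch means and the remainder, for each of the 23 tested probe sets. The genotype share is 64.7% and 59.3% in the Mcm6 probe sets and at most 36.9% in the other 21.

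The batch pattern also differed between probe sets of 1 gene. Mcm5 1415945_at read 928.2, 369.2 and 523.9 in DKO and 876.3, 483.4 and 556.6 in WT, lowest in batch 2, whereas Mcm5 1436808_x_at was highest there. Over the 4 genotypes their batch 2 means stood -0.53 and 0.34 from the overall mean, and the pair correlated at r = -0.620 over the 12 arrays. Mcm7 1416030_a_at and 1438320_s_at stood -0.57 and 0.12 from the mean in batch 2, and Mcm3 1449705_x_at and 1426653_at stood -0.36 and 0.32. Batch 2 is the batch whose 3′ to 5′ ratios were high in every genotype, and the part of RNA quality in this was not tested. The 2 Mcm6 probe sets both lay above the mean in batch 2 (0.26 and 0.43) and moved apart in batch 3 (0.23 and -0.21).

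The brightest probe sets of the members also did not move as 1 block from array to array. Among the brightest probe sets, Mcm2 and Mcm7 were the most alike (r = 0.911 over 12 arrays), and Mcm3 with Cdt1 the least (r = -0.514). Mcm6 was most like Mcm7 (r = 0.828), then Mcm10 (0.708), Mcm2 (0.628), Cdc6 (0.602), Mcm4 (0.553), Cdt1 (0.478), Mcm5 (0.423) and Mcm3 (0.187). These arrays share batch and genotype, so the coefficients are descriptions. They also depend on the probe set taken for each gene, since Mcm7 1416030_a_at and 1438320_s_at correlated at r = -0.069 with each other.

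Among 13898 named genes the patterns closest to Mcm6 over the 12 arrays were those of Pter (r = 0.924), Smyd5 (0.920), Mrpl43 (0.904), Glo1 (0.902), Cdk2ap1 (0.900), Ammecr1 (0.889), Cnpy2 (0.888), Ints4 (0.883), Chchd10 (0.880) and Zxda (0.877). No gene of the helicase was among these 10, and none of them lies on chromosome 1. Mcm7 came in at rank 63 and the other members between rank 398 (Mcm10) and rank 4605 (Mcm3). The genes closest to the partner mean were Mrpl32 (r = 0.968), Cox5a (0.963), Thoc7 (0.956), Cenpp (0.935) and C1qtnf12 (0.934), with Mcm6 at rank 659 (0.753).

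Mcm6 and Il10 are close in gene order on chromosome 1. In RefSeq 34 annotated genes lie between them, 16 of them protein-coding and 10 tested and named here. Of the 5 nearest tested genes on each side of Mcm6, none was called by limma in any of the 5 comparisons between genotypes, with or without batch. On the side away from Il10, Rab3gap1, a regulator of Rab3 membrane traffic, differed from WT by 0.47 ± 0.23 in DKO and by 0.57 ± 0.23 in Il10_KO (limma adjusted p = 1.00 for both; 0.485 and 0.411 with batch). Zranb3, which remodels stalled replication forks, differed by 0.36 ± 0.27 and 0.38 ± 0.27 in these comparisons. Beyond Mcm6 towards Il10, the chemokine receptor gene Cxcr4 differed by 1.44 ± 0.85 in DKO and 1.32 ± 0.85 in Il10_KO (limma adjusted p = 1.00 for both). In Ebi3_KO, which keeps Il10, Cxcr4 also stood above WT, by 1.05 ± 0.85, while Rab3gap1 and Zranb3 differed there by 0.06 and 0.08. The other 7, R3hdm1, Ubxn4, Lct, Thsd7b, Cd55, Pfkfb2 and Yod1, lay between -0.75 and 0.26 in DKO and between -0.37 and 0.14 in Il10_KO. None of the 10 lay as low as Mcm6 in either comparison. The lowest, Lct and Thsd7b, were dim, at mean signals of 28.1 and 21.5.

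**Figure D5:**
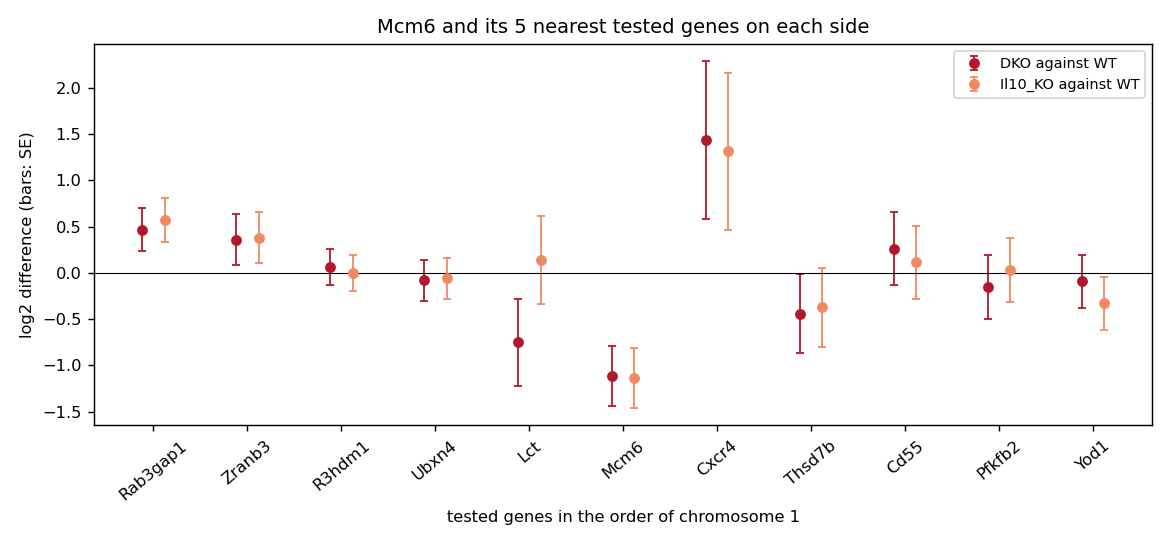
Log2 difference from WT with SE (bars) in DKO and in Il10_KO, 3 arrays per group, of Mcm6 and the 5 nearest tested genes on each side in the order of chromosome 1. Mcm6 lies at -1.11 and -1.14, and the lowest neighbour is Lct, at -0.75, in DKO.

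The 10 tested neighbours of Mcm3 were likewise not called in those 5 comparisons. The widest difference among them in DKO against WT was that of Il17a, the gene of the cytokine IL-17A, at 1.94 ± 0.69 (limma adjusted p = 1.00).

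The rest of the replication pathway was read from 7 lists of 91 genes, of which 88 were measured with 1 probe set each. No gene of any list passed the limma threshold in any comparison, with or without batch in the model. At an unadjusted p under 0.05 there were 0 in DKO against WT, 4 in Il10_KO against WT, 0 in DKO against Ebi3_KO, 2 in Ebi3_KO against WT and 2 in DKO against Il10_KO. With batch these were 6, 22, 5, 5 and 9 of the 88. As shares of the lists without batch these are 0% in DKO against WT, 4.55% in Il10_KO against WT, 0% in DKO against Ebi3_KO, 2.27% in Ebi3_KO against WT and 2.27% in DKO against Il10_KO, where 2.50%, 2.16%, 1.38%, 1.39% and 1.28% of all named genes had such a p. With batch the shares are 6.82%, 25%, 5.68%, 5.68% and 10.2% in the same order, where 8.50%, 8.46%, 4.53%, 5.36% and 3.27% of all did. For the interaction 3 of the 88 had one without batch (3.41%, against 1.22% of all named genes) and 10 with it (11.4%, against 3.68%). In the sentences below, members are counted by the side of 0 they lay on. The 2 genes named of each list are those of smallest unadjusted limma p in Il10_KO against WT with batch. Their values in comparisons with Il10_KO are therefore shaped by that choice.

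The genes that recognise and license origins, such as Orc1 and the Cdt1 inhibitor Gmnn, lay on both sides of 0. Of 10, 5 were below WT in DKO (median -0.03) and 7 in Il10_KO (median -0.08). Gmnn differed by 0.55 ± 0.41 in DKO and 0.38 ± 0.41 in Il10_KO, and Orc1 by 0.75 ± 0.97 and 0.97 ± 0.97. Of the 14 helicase activation genes 11 were below WT in DKO (median -0.07) and 12 in Il10_KO (median -0.34). Examples are Topbp1, which helps bring in Cdc45 (-0.19 ± 0.25 in DKO and -0.41 ± 0.25 in Il10_KO), and Tipin of the fork protection complex (-0.29 ± 0.33 and -0.36 ± 0.33).

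Of the 21 measured fork genes 16 were below WT in DKO (median -0.07) and 16 in Il10_KO (median -0.20). Pole2, a subunit of DNA polymerase epsilon, differed by -0.16 ± 0.35 in DKO and -0.60 ± 0.35 in Il10_KO. Rpa3, of the single-strand binding complex, differed by -0.12 ± 0.31 and -0.48 ± 0.31. Of the 6 measured genes of nucleotide supply 3 were below WT in DKO (median 0.03) and 6 in Il10_KO (median -0.29). Rrm2, the small subunit of ribonucleotide reductase, differed by 0.23 ± 0.33 in DKO and -0.50 ± 0.33 in Il10_KO, and Dut, which removes dUTP, by -0.14 ± 0.21 and -0.36 ± 0.21.

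Of the 12 E2F and RB regulators 6 were below WT in DKO (median -0.00076) and 8 in Il10_KO (median -0.21). E2f3, an activating E2F, differed by -0.25 ± 0.28 in DKO and -0.54 ± 0.28 in Il10_KO, and E2f8, a repressing one, by 0.00 ± 0.67 and -0.72 ± 0.67. Of the 11 cyclins and inhibitors of G1 and S 6 were below WT in DKO (median -0.05) and 6 in Il10_KO (median -0.02). Ccna2, the S phase cyclin, differed by -0.06 ± 0.27 in DKO and -0.89 ± 0.27 in Il10_KO. Cdkn1a, the p21 inhibitor, differed by 1.33 ± 0.86 and 1.23 ± 0.86. In Ebi3_KO, which keeps Il10, the genes named of the lists so far lay on the same side of WT as in Il10_KO, except Topbp1 (0.00782). Gmnn differed there by 0.597 and Ccna2 by -0.584, while Rrm2 stood near WT (-0.0287). These directions were thus not limited to the genotypes without Il10. Ebi3_KO was compared with the same WT arrays that served to choose the named genes.

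The mitosis list stood furthest from 0. Of its 14 measured genes 10 were below WT in DKO (median -0.23) and 13 in Il10_KO (median -0.58). All 14 also lay below WT in Ebi3_KO (median -0.31). Of all named genes 50.5% were below WT in DKO, 50.3% in Il10_KO and 53.5% in Ebi3_KO. Mki67, the Ki-67 antigen of cycling cells, differed by 0.25 ± 0.25 in DKO and -0.71 ± 0.25 in Il10_KO, and the checkpoint kinase gene Bub1b by -0.28 ± 0.42 and -0.94 ± 0.42 (limma adjusted p = 1.00 for each). In DKO against Il10_KO 13 of the 14 lay above 0 (median 0.39, against -0.00266 for all named genes), with Mki67 at 0.97 ± 0.25 (limma adjusted p = 1.00; 0.419 with batch). Ccna2, of the cyclin list, stood at 0.84 ± 0.27 there (limma adjusted p = 1.00). Mcm6 differed by 0.03 in that comparison, and by nearly the same amount from WT in both genotypes without Il10. Whether the mitosis genes and Mcm6 differ in their pattern over the genotypes was not tested.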

How the data were processed

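RNA of purified Tregs was measured on 12 arrays, with 3 arrays for each of 4 genotypes. Per the labels, RNA was extracted with a Qiagen kit and biotin-labelled in the Affymetrix protocol with 2 cycles, from 1 µg of total RNA. MAS5 and Partek 6.4 are named in the submitters' processing notes, with no scale or further step given. The deposited values are on a natural log scale: the authors' table holds natural logs of each MAS5 signal after 20 was added, as read from the values themselves, since subtracting 20 after exponentiation left multiples of 0.1 for signals below 200 on every array (100% of them) and a trimmed mean of 499.8 to 499.9 (2% trimmed from each end). All value columns were mapped to samples.

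The design had assumed another scale for the table, so values were first turned into log2(signal + 20), without further normalization. The 64 control probe sets were left out, and probe sets had to reach their array's 40th percentile on 3 or more arrays, a filter passed by 31235 and failed by 13802. Gene symbols come from the platform annotation: 34945 probe sets have 1 symbol, 932 several and 9160 none, and those without a single symbol were tested unnamed. Names, chromosomes and gene order follow RefSeq (GRCm38.p6). A gene's brightest probe set is that of highest mean signal over the 12 arrays.

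All genotypes were fitted together with limma 3.58.1 in R 4.3.3 (lmFit, eBayes with trend; 8 residual degrees of freedom) for 6 contrasts, and p-values were adjusted by Benjamini-Hochberg over all tested probe sets, with a threshold of 0.05. The script was tested on simulated data. The numbers pair the arrays, since the labels make each a batch: arrays with the same number deviated together (r = 0.325 to 0.664 over 18 pairs, against -0.531 to -0.0204 over 36 pairs with different numbers and genotypes), and 12 of 12 correlated best with their own number. A fit that includes batch (6 residual degrees of freedom) is therefore given where it changes a call. Alternatives were an offset of 50, no filter, a filter at the 60th percentile on at least 6 arrays, quantile normalization and each array left out. The alternatives that leave out batch 2 or batch 3 were added after seeing the data.

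The genes, the lists and the rule for named genes were chosen with earlier results of these data known. The rule names all member probe sets, the 10 and 5 genes most like Mcm6 and the partner mean, the 5 nearest tested genes on each side of Mcm6 and Mcm3 (those of Mcm3 as a range), and of each list those past the threshold or else the 2 of smallest p in Il10_KO against WT with batch.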

Additional observations from a re-analysis of the deposited data

Results flagged for a closer look

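For the Mcm7 probe set 1416030_a_at, the difference made by the loss of Il10 lay above 0 in every batch in cells without Ebi3 and below 0 in every batch in cells with Ebi3. DKO against Ebi3_KO gave 0.149, 0.111 and 0.0157 in batches 1, 2 and 3, and Il10_KO against WT gave -0.275, -0.535 and -0.0511. The interaction that tests this was 0.379 ± 0.537 (SE without batch, or 0.216 with it; limma adjusted p = 1.00 in both) and did not pass the threshold. The Mcm7 probe set 1438320_s_at gave 0.11, -0.34 and 0.02 in the comparison of DKO with Ebi3_KO.

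For Cdc6 the difference made by the loss of Ebi3 lay above 0 in every batch in cells without Il10 and below 0 in every batch in cells with Il10. DKO against Il10_KO gave 1.24, 0.201 and 0.180 in the 3 batches, and Ebi3_KO against WT gave -0.0900, -0.126 and -0.0467. The interaction was 0.627 ± 0.543 (SE without batch, or 0.397 with it; limma adjusted p = 1.00 in both) and did not pass the threshold. Both results were flagged for their opposite signs among the 23 tested member probe sets. How often such signs occur over all tested probe sets was not counted. Groups of 3 arrays are too small for a check of single outlying arrays.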

How the results depend on the processing

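Over the 34 alternatives of each comparison, Mcm6 relative to its partner mean moved by less than the spread between arrays. It kept its direction in all but DKO against Il10_KO, where its -0.04 changed sign in 5 alternatives and ran from -0.119 to 0.0604. With single arrays left out, with or without batch, it ran from -1.14 to -0.906 in DKO against WT and from -1.10 to -0.894 in Il10_KO against WT. With the replicate block (batch as a factor) the calls over all probe sets were 12 in place of 2 in Il10_KO against WT. They were 13 in place of 3 in DKO against WT and 6 in place of 2 in DKO against Ebi3_KO. Calls among members are not given here, since these comparisons chose the members. In the other comparisons the block changed no count of calls. With single arrays left out, with or without the block, total calls ran from 2 to 7 in Il10_KO against WT and from 3 to 31 in DKO against WT. They ran from 2 to 7 in DKO against Ebi3_KO and from 1 to 8 in Ebi3_KO against WT. In DKO against Il10_KO they ran from 1 to 16, and for the interaction from 0 to 1. All upper ends came from the blocked fit, the 31, 8 and 16 without Ebi3_KO replicate 3, the 7 in Il10_KO against WT without DKO replicate 1 or 3, Ebi3_KO replicate 3 or WT replicate 1, the 7 in DKO against Ebi3_KO without Il10_KO replicate 2 and the 1 for the interaction without WT replicate 3. With batch 2 or with batch 3 left out, calls without a block were 0 in each of the 5 comparisons between genotypes, where fewer arrays were fitted. With the block and batch 2 left out they were 2 in Il10_KO against WT, 4 in DKO against WT, 3 in DKO against Ebi3_KO, 1 in Ebi3_KO against WT and 2 in DKO against Il10_KO. With the block and batch 3 left out they were 2, 6, 2, 2 and 2 in the same order. No member was called in Ebi3_KO against WT or in DKO against Il10_KO with either batch left out. The Mcm6 difference of DKO from Il10_KO, 0.03, changed sign with single arrays left out and ran from -0.2144 to 0.156; the cause was not tested. Of 1223 alternative values of 36 differences of members and partners, 103 lay on the other side of 0 from the reported value; they belong to 19 differences, none larger than 0.187 as reported, and not to Mcm6 in a comparison that differs by Il10. Signals near background limit Mcm10 1433407_at, Mcm5 1459658_at and the 3 untested probe sets.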
